A study of Mus musculus with 6 samples.

Results

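The 10 genes described here encode ligands, receptors and SMAD proteins of bone morphogenetic protein (BMP) and transforming growth factor beta (TGF-beta) signalling: Bmp2, Bmp4, Bmp10, Tgfb2, Bmpr1a, Bmpr2, Tgfbr2, Smad4, Smad6 and Smad7. They were chosen by Ensembl gene ID as named pathway members and not by a rule on their values, though earlier results of these data were known. They are 10 of 48505 genes in the deposited tables and hold 2397 of 5193362 windows, most of which start 25 nucleotides apart along a gene. The tables give IDs only, so the symbols come from the list that named the genes.

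The libraries hold RNA fragments pulled down by an antibody against N6-methyladenosine (m6A), a methylated base of RNA; the pulled-down material is the immunoprecipitate (IP). The 3 nano-TiO2 libraries came from fetal hearts of FVB/NJ wild-type mice whose dams, bought at 10 weeks of age, inhaled an aerosol of engineered titanium dioxide nanoparticles at a target of 12 mg/m3. The dams inhaled it for 360 minutes a day on 6 non-consecutive days in an 8-day span from gestational day 5, and hearts were taken on gestational day 15. The 3 sham libraries came from FVB/NJ wild-type fetal hearts of the same age, and their dams breathed filtered air. Hearts of both sexes were pooled for every library. Whether each pool came from litters of its own is unstated in the labels, and p-values measure only the spread between these 6 samples. An IP level, the normalized reads summed over a gene's windows, rises with the amount of an RNA as well as with its methylation, and in bulk hearts fewer cells of a type and less RNA per cell cannot be told apart.

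In this pathway a ligand dimer brings together type I and type II receptor kinases at the cell surface. The receptors phosphorylate receptor-regulated SMADs, which join SMAD4 and enter the nucleus, while SMAD6 and SMAD7 are induced by the same signals and damp them. In the developing heart the pathway is known for its part in the trabeculae of the ventricular wall and in the endocardial cushions, from which valves and septa form.

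IP reads on these genes made up a larger part of the library in the nano-TiO2 hearts than in the sham hearts. Nano-TiO2 replicates 1, 2 and 3 held 4395, 7065 and 7183 reads on the 10 genes, against 3041, 2954 and 2024 in sham replicates 1, 2 and 3. As counts scaled to equal library totals (CPM) this came to 218, 294 and 254 in nano-TiO2 hearts and 98.5, 93.7 and 91.4 in sham hearts. The lowest nano-TiO2 library was thus above the highest sham library, although the libraries themselves held 20205024 to 28251706 reads in nano-TiO2 and 22151447 to 31523675 in sham. Part of this gap was shared by genes at large on this scale. With equal library totals the median log2 change was 0.61 over all 18566 genes tested, beside 1.51 in the 10 genes. Of all genes, 8005 rose and 169 fell (limma, adjusted p under 0.05).

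Of the 10 genes, 8 rose in IP level in nano-TiO2 hearts, Bmp2, Bmp4, Bmp10, Tgfb2, Bmpr1a, Bmpr2, Tgfbr2 and Smad4, and 0 fell (limma, adjusted p under 0.05). Over all 18566 genes tested, 24.0% rose and 12.0% fell. The log2 change was above 0 in 9 of the 10 genes and in 56.4% of all genes. In those 8 genes every nano-TiO2 library lay above every sham library, which held for 30.9% of all genes tested. The inhibitory SMAD genes Smad6 and Smad7 did not pass the test. The median log2 change of the 10 genes was 1.01, beside 0.13 over all genes tested. With length-related differences between libraries removed, 3 of the 10 passed the test, Bmp4, Bmp10 and Tgfb2. In that fit 1852 of all 18566 genes rose and 2860 fell.

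**Figure D1:**
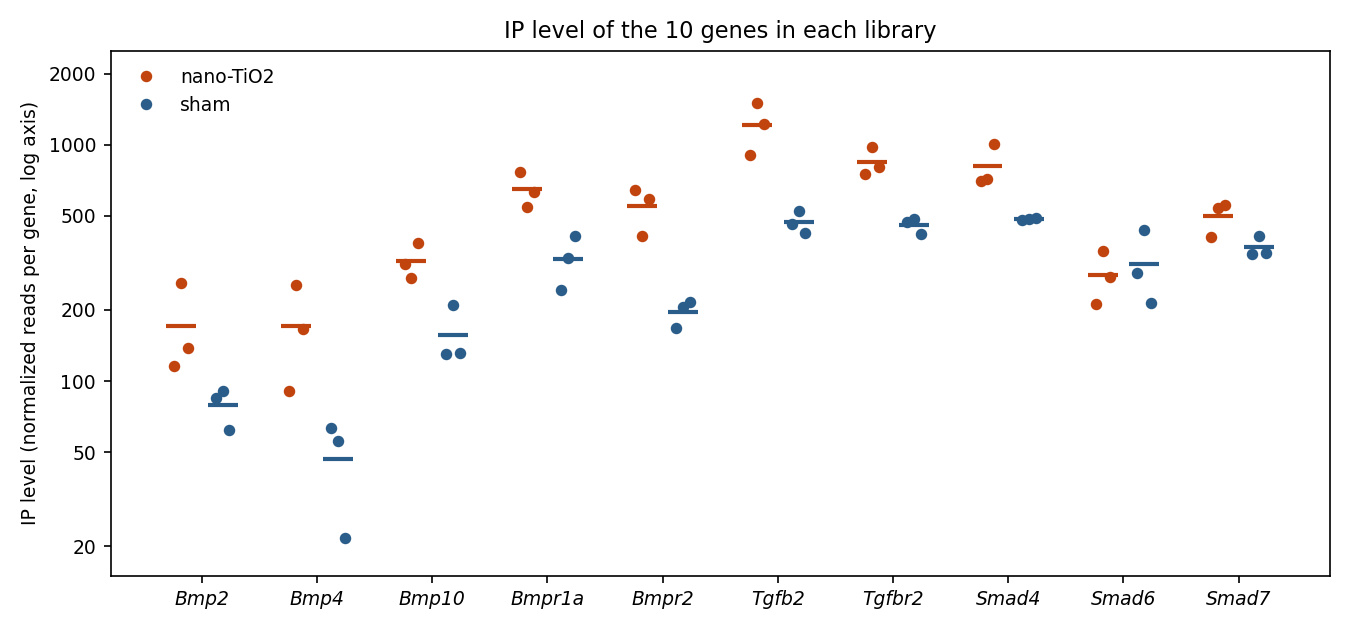
IP level of the 10 genes in each library, in normalized reads summed over the windows of a gene, on a log axis. Points are libraries (3 nano-TiO2, 3 sham) and bars are group means; the groups are apart in 8 genes and overlap in Smad6 and Smad7, and the lowest point is Bmp4 in sham replicate 3, at 21.6.

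Among the ligands, Bmp10 (ENSMUSG00000030046) encodes a BMP made by cardiomyocytes that is needed for trabecular growth. Its IP level was 311, 272 and 385 normalized reads in nano-TiO2 replicates 1, 2 and 3, against 129.5, 209 and 131 in sham replicates 1, 2 and 3. All nano-TiO2 libraries were above all sham libraries, and sham replicate 2 stood highest in its group. The means were 323 ± 57.2 and 157 ± 45.6 (SD, n = 3 each). The fitted rise was 2.09-fold, a log2 change of 1.06 ± 0.23 (SE, limma adjusted p = 0.0084). The call held in 19 of 19 alternative settings, those without one library included.

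Bmp2 (ENSMUSG00000027358) and Bmp4 (ENSMUSG00000021835) encode closely related ligands of cushion and outflow tract development, and their libraries held 46 to 315 reads for Bmp2 and 16 to 307 for Bmp4 before scaling. Bmp4 had 90.4, 254 and 167 normalized reads in nano-TiO2 replicates 1, 2 and 3, against 63.0, 55.9 and 21.6 in sham replicates 1, 2 and 3. Nano-TiO2 replicate 2 was the highest library and sham replicate 3 the lowest. The Bmp4 means were 170.4 ± 81.9 and 46.8 ± 22.1 (SD, n = 3 each). The fitted rise of Bmp4 was 3.62-fold, a log2 change of 1.86 ± 0.47 (SE, limma adjusted p = 0.0146), and the call held in 19 of 19 alternatives. Bmp2 had 116, 261 and 138 normalized reads in nano-TiO2 hearts, against 84.6, 90.9 and 62.2 in sham hearts. Nano-TiO2 replicate 2 was the highest library, and replicate 1 was the nearest of its group to the sham range. The log2 change of Bmp2 was 1.03 ± 0.31 (SE, limma adjusted p = 0.0309), and this call held in 13 of 19 alternatives. It was lost without nano-TiO2 replicate 2 or 3 (log2 changes of 0.69 and 1.14), without sham replicate 1 or 3 (1.09 and 0.87), under quantile normalization (0.66) and with the length trend removed (0.81).

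Tgfb2 (ENSMUSG00000039239) encodes the TGF-beta ligand whose loss in mice causes septal and outflow tract defects. It had 903, 1509 and 1226 normalized reads in nano-TiO2 replicates 1, 2 and 3, against 462, 524 and 424 in sham replicates 1, 2 and 3. The lowest nano-TiO2 library was well clear of the highest sham library. The means were 1212 ± 303 and 470.1 ± 50.0 (SD, n = 3 each). The fitted rise was 2.53-fold, a log2 change of 1.34 ± 0.20 (SE, limma adjusted p = 0.0018), and the call held in 20 of 20 alternatives. The promoter of Tgfb2 is shown because, of the 5 genes with windows at a mean of at least 10, only Tgfb2 had passing windows. It runs from 250 bases before to 50 bases after the start of the gene in RefSeq (GRCm38.p6), with CAGACA, a motif that SMAD proteins are known to bind, in capitals at position -204 from the start.
Tgfb2 promoter, chr1:186705940-186706239, minus strand: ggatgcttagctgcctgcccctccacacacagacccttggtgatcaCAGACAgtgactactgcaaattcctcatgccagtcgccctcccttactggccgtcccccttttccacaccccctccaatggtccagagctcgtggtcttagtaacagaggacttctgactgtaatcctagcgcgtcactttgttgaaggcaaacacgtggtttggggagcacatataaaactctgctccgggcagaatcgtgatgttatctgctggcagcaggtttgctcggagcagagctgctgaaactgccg

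All 3 receptor genes rose. Bmpr1a (ENSMUSG00000021796) encodes a type I receptor for BMPs. It had 769, 546 and 634 normalized reads in nano-TiO2 replicates 1, 2 and 3, against 243, 333 and 412 in sham replicates 1, 2 and 3. The groups were apart, nano-TiO2 replicate 2 being the lowest of its group and sham replicate 3 the highest of its own. The log2 change of Bmpr1a was 1.00 ± 0.22 (SE, limma adjusted p = 0.0087). Bmpr2 (ENSMUSG00000067336) encodes a type II receptor for BMPs. It had 644, 411 and 592 normalized reads in nano-TiO2 hearts, against 167, 206 and 216 in sham hearts. Each nano-TiO2 library was above the sham range, and the fold of 2.75 was second to that of Bmp4 among the 10 genes. Its log2 change was 1.46 ± 0.21 (SE, limma adjusted p = 0.0015). Both calls held in 18 of 19 alternatives and were lost with the length trend removed, where the log2 changes were 0.45 for Bmpr1a and 0.32 for Bmpr2.

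Tgfbr2 (ENSMUSG00000032440) encodes the type II receptor that binds TGF-beta ligands. It had 749, 981 and 803 normalized reads in nano-TiO2 replicates 1, 2 and 3, against 473, 484 and 418 in sham replicates 1, 2 and 3. The 6 libraries split cleanly, with a narrow range in sham. Its log2 change was 0.87 ± 0.16 (SE, limma adjusted p = 0.0037), and the call held in 19 of 20 alternatives, with a log2 change of 0.17 where the length trend was removed. The promoter of Bmpr2, the longest of the 10 genes with 719 windows, is shown with GGCGCC, a GC-rich motif of BMP-responsive SMADs, in capitals at position -105 from the start (RefSeq, GRCm38.p6, the same span around the start).
Bmpr2 promoter, chr1:59764029-59764328, plus strand: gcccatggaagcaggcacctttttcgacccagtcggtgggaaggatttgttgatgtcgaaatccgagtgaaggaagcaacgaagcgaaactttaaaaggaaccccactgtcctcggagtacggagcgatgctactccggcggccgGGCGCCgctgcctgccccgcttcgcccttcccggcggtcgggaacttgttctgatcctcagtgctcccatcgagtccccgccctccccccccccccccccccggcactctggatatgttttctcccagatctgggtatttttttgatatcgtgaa

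Smad4 (ENSMUSG00000024515), the partner of the receptor-regulated SMADs in both branches, also rose. It had 704, 717 and 1012 normalized reads in nano-TiO2 replicates 1, 2 and 3, against 481, 487 and 488 in sham replicates 1, 2 and 3. The sham libraries were nearly equal, and nano-TiO2 replicate 3 was higher than the other two of its group. The means were 811 ± 174 and 486 ± 3.70 (SD, n = 3 each). The fitted rise was 1.65-fold, a log2 change of 0.72 ± 0.17 (SE, limma adjusted p = 0.0121). The call held in 18 of 20 alternatives. It was lost with the length trend removed (log2 change of 0.47) and with the median of its tested windows in place of their sum (0.55).

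Groups overlapped in both inhibitory SMAD genes. Smad6 (ENSMUSG00000036867), which acts mainly against BMP signals and whose loss in mice enlarges the heart valves, had 211, 356 and 275 normalized reads in nano-TiO2 replicates 1, 2 and 3, against 287, 434 and 215 in sham replicates 1, 2 and 3. Replicate 2 was the highest of each group. The means of 280.4 ± 72.6 and 312 ± 112 (SD, n = 3 each) gave a log2 change of -0.12 ± 0.28 (SE, limma adjusted p = 0.763), whose sign turned with equal library totals (0.37), with equal totals over all but the 4 most abundant genes (0.14), without nano-TiO2 replicate 1 (0.06) and without sham replicate 2 (0.14). Smad7 (ENSMUSG00000025880), which blocks receptors of both branches, had 407, 540.4 and 554 normalized reads in nano-TiO2 hearts, against 345, 412 and 347 in sham hearts. Nano-TiO2 replicate 1 lay just below sham replicate 2, and the other two were above all sham libraries. Its log2 change was 0.43 ± 0.18 (SE, limma adjusted p = 0.0837), which passed the test in 4 of 20 alternatives. These were equal library totals (0.93), equal totals over all but the 4 most abundant genes (0.70), library weights (0.52) and the fit without nano-TiO2 replicate 1 (0.58). The promoter of Smad6 is shown because it holds GTCTAGAC, the palindromic SMAD-binding element, in capitals at position -4 from the start (RefSeq, GRCm38.p6, the same span).
Smad6 promoter, chr9:64022010-64022309, minus strand: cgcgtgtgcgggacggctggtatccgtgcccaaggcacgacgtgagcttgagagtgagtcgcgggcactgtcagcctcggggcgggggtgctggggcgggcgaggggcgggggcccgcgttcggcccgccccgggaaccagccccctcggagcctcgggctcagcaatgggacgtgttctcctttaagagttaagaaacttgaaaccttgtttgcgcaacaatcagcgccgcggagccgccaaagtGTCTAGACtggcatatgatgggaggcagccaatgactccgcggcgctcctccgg

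Promoter sequences were found in the RefSeq table for 7 of the 10 genes and searched on both strands for 4 motifs, of which none contains another. GTCTAGAC was in Smad6 and in 0.213% of all 32851 promoters of that table. GGCGCC was in Bmpr1a and Bmpr2 and in 11.9% of all promoters, and CAGACA was in Tgfb2 and in 21.0%. GGCGCGCC was in none of the 7 and in 1.39% of all promoters. These matches are descriptions of letters and were not set against the IP values.

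Per length, the order of the genes was led by Smad4 in both groups. In normalized reads per 100 windows, Smad4 stood at 548 ± 118 in nano-TiO2 and 328 ± 2.50 in sham hearts, and Tgfb2 at 525 ± 131 and 204 ± 21.7 (SD, n = 3 each). In nano-TiO2 hearts Tgfb2 came next to Smad4 within its spread, followed by Smad7 (278 ± 45.0), Tgfbr2 (258 ± 37.1), Bmpr1a (256 ± 44.2) and Smad6 (219 ± 56.8), which overlapped in their spread. In sham hearts Smad6 (244 ± 87.1), Smad7 (204 ± 21.2) and Tgfb2 came after Smad4, with Tgfbr2 (140.2 ± 10.9) and Bmpr1a (129.7 ± 33.4) behind them. Bmp4, Bmp10 and Bmp2 followed in nano-TiO2 hearts at 191 ± 92.0, 180.4 ± 32.0 and 121 ± 54.9. Their sham levels were 52.6 ± 24.8, 87.5 ± 25.4 and 55.8 ± 10.6. Bmpr2 was the lowest per window in both groups, at 76.4 ± 17.0 in nano-TiO2 and 27.3 ± 3.59 in sham hearts.

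IP changes in this series went with gene length, and 6 of the 10 genes fall in the 2 longest of 5 length classes. The tested genes were set in these classes, of nearly equal size, by their number of windows. The median log2 change was -0.48 in genes of 8 to 52 windows, -0.09 at 53 to 109, 0.12 at 110 to 171, 0.34 at 172 to 265 and 0.81 at 266 to 4927 windows. The share of genes that rose was 4.57%, 9.31%, 19.2%, 31.5% and 55.4% in the same order. Bmp4, with 89 windows, was the only one of the 10 in the second class, and its log2 change was 1.95 above that class's median. Bmp2 (142 windows) and Smad4 (148) were 0.92 and 0.60 above the median of the third class, and Smad6 (128) was below it. In the fourth class, Tgfb2 (231 windows), Bmp10 (179), Bmpr1a (254) and Smad7 (180) were 0.99, 0.72, 0.65 and 0.09 above the median. Bmpr2 (719 windows) was 0.65 above the median of the longest genes and Tgfbr2 (327) 0.06 above it. In all, 9 of the 10 genes were above the median of their class.

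**Figure D2:**
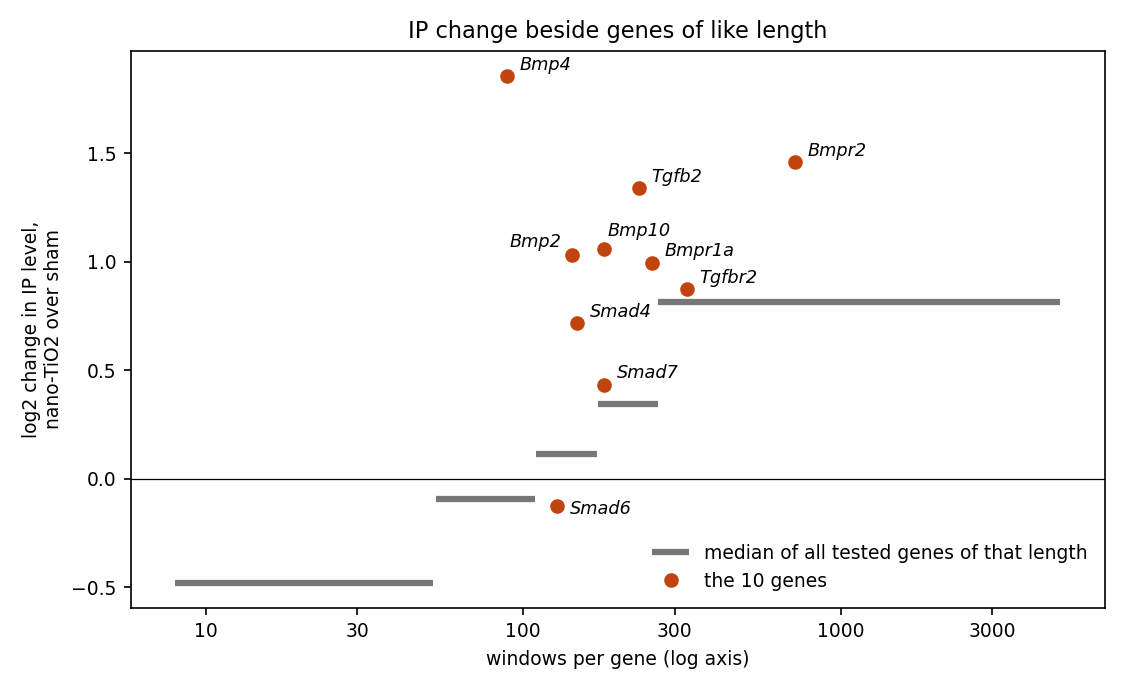
Log2 change in IP level of nano-TiO2 over sham hearts, against the number of windows per gene on a log axis. Points are the 10 genes and grey bars the medians of all tested genes in 5 classes of length; 9 of the 10 points lie above the bar of their class and Smad6 lies below.

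With a smooth trend on length removed from each library, Bmp4, Tgfb2 and Bmp10 passed the test, with log2 changes of 1.81, 0.85 and 0.72, and 3 of the 10 genes were called in place of 8. Over all genes that fit called 1852 higher and 2860 lower, against 4450 and 2226 in the deposited scaling. Other scalings also moved the all-gene balance: equal library totals gave 8005 higher and 169 lower, equal totals over all but the 4 most abundant genes 6298 and 1012, quantile normalization 3068 and 2790, and DESeq2 on the recovered reads 3821 and 3495. The median log2 change of the 10 genes stayed above that of all genes, at 1.51 beside 0.61 with equal totals, 1.28 beside 0.39 with equal totals over all but the 4 most abundant genes, 0.72 beside -0.05 with quantile normalization and 0.46 beside -0.08 with the length trend removed.

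A second deposited table, the adjusted level, divides each gene's normalized windows by a factor of its own in each library and rounds the result, and the sources used here do not give what the factor was made from. On this scale 0 of the 10 genes passed the test in limma, as did 0 of all 19361 genes tested (0%), and 0 of the 8 that edgeR could test with the factor as an offset. At an unadjusted p under 0.05 there were 2 of the 10, Tgfb2 and Bmp4, and 3592 of all genes (2858 of 13807 in edgeR). The median log2 change of the 10 was 0.19, beside 0.17 over all genes.

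Tgfb2 had adjusted levels of 752, 1089 and 975 in nano-TiO2 replicates 1, 2 and 3, against 603, 672 and 644 in sham replicates 1, 2 and 3. It was the 1 gene of the 10 whose nano-TiO2 libraries were all above all sham libraries, which held for 19.4% of all genes. Its log2 change was 0.54 ± 0.14 (SE, limma adjusted p = 0.179). Bmp4 had 85, 134 and 142 in nano-TiO2 hearts, against 70, 101 and 62 in sham hearts, with nano-TiO2 replicate 1 inside the sham range. Its log2 change was 0.62 ± 0.28 (SE, limma adjusted p = 0.268).

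For the receptors the log2 changes in adjusted level were 0.38 ± 0.17 in Bmpr1a, 0.22 ± 0.15 in Bmpr2 and 0.29 ± 0.16 in Tgfbr2 (SE, limma adjusted p = 0.270, 0.451 and 0.355). Bmpr1a had 499, 649 and 487 in nano-TiO2 replicates 1, 2 and 3, against 350, 503 and 409 in sham replicates 1, 2 and 3. Sham replicate 2 lay above the lower nano-TiO2 libraries, so the groups overlapped.

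Bmp10 and Bmp2, which rose in IP level, had nearly equal group means on the adjusted scale. Bmp10 had 227, 289 and 216 in nano-TiO2 hearts, against 249, 267 and 209 in sham hearts, and Bmp2 104, 119 and 162, against 94, 166 and 125. In both the ranges of the groups overlapped almost fully. The log2 changes of both were 0.01 and changed sign with TMM scaling and quantile normalization. Smad4, Smad6 and Smad7 had changes of -0.03, 0.16 and -0.01, the limma adjusted p of these 5 genes being 0.595 to 0.985. With library weights 3 of the 10 genes passed the test, Tgfb2, Bmp4 and Bmpr1a (log2 changes of 0.63, 0.90 and 0.41), beside 4347 genes higher and 664 lower over all genes. Without sham replicate 2 it was 1 of the 10, Tgfbr2 (log2 change of 0.46), beside 1628 higher and 267 lower.

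The factor itself was higher in nano-TiO2 hearts for 5 of the 8 genes whose factor was fixed by the rounding to a relative width of at most 0.2 in every library, Bmp10, Bmpr2, Tgfb2, Tgfbr2 and Smad4, and lower for 0. Over all 13812 genes tested it was higher in 16.8% and lower in 19.3%. Bmpr2 had factors of 1.69, 1.19 and 1.41 in nano-TiO2 replicates 1, 2 and 3, against 0.451, 0.591 and 0.677 in sham replicates 1, 2 and 3. All nano-TiO2 libraries were above 1 and all sham libraries below it. The groups were apart in 5 of the 8 genes, which held for 20.6% of all genes with nano-TiO2 the higher. The log2 change of Bmpr2 was 1.32 ± 0.31 (SE, limma adjusted p = 0.0245). Because the factor is the normalized over the adjusted value, its change is nearly the IP change less the adjusted change. In Bmpr2 these were 1.46 and 0.22.

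Bmp10 had factors of 1.40, 0.983 and 1.66 in nano-TiO2 hearts, against 0.531, 0.768 and 0.612 in sham hearts. The groups were apart, and the log2 change was 1.07 ± 0.30 (SE, limma adjusted p = 0.0267). Its nearness to the IP change of 1.06 restates the adjusted change of 0.01. Tgfb2, at 1.23, 1.38 and 1.26 against 0.751, 0.741 and 0.640, changed by 0.86 ± 0.20 (SE, limma adjusted p = 0.0245). Tgfbr2 and Smad4 changed by 0.55 and 0.76 (limma adjusted p = 0.0340 and 0.0266). Bmpr1a (0.68), Smad7 (0.45) and Smad6 (-0.29) did not pass the test, and the sign for Smad6 turned without nano-TiO2 replicate 1. Bmp2 and Bmp4 entered only at a width of up to 0.5, where their log2 changes were 1.02 and 1.10 and did not pass.

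These calls rested on few libraries. The number of the 8 genes called was 0 without nano-TiO2 replicate 1, 0 without nano-TiO2 replicate 3 and 3 without sham replicate 1, and in the first 2 of these fits 0 of all genes were called, with 5199 and 5610 at an unadjusted p under 0.05. Centring each library on its median factor gave 6 of 8, beside 2706 genes higher and 889 lower over all genes, against 2318 and 2661 without centring.

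**Figure D3:**
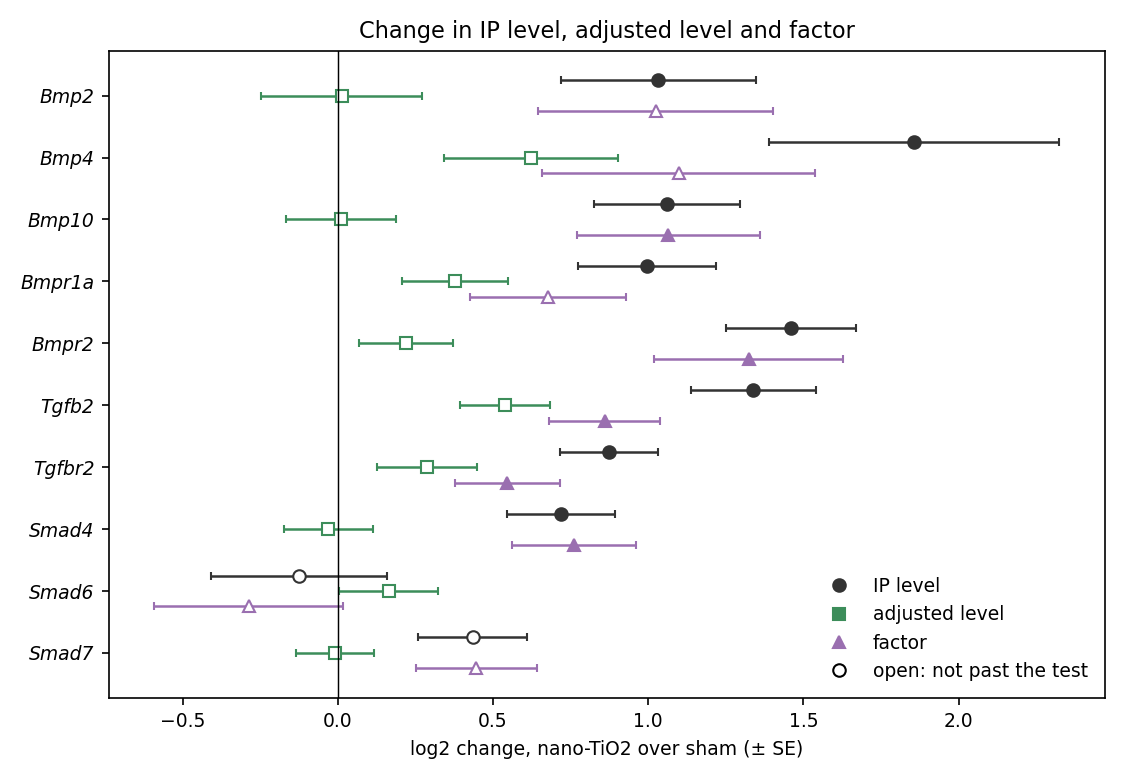
Log2 change of nano-TiO2 over sham hearts in IP level, adjusted level and factor for each of the 10 genes, with bars of 1 SE. Filled marks passed the limma test and open marks did not, and factors are from the fit that allows a width of up to 0.5; in IP level 8 marks are filled, in adjusted level 0, and in the factor 5.

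Along the genes, reads were gathered in stretches whose place differed between genes. Windows are counted in the order of the deposited table, and the files do not say whether that order follows the genome or the transcript. In Bmp10, 50% of the signal was reached at 85.8% of the window order, and its first 118 windows held 153 of 1518 reads over the 6 libraries. Smad7 reached 50% at 82.5%, and its first 74 windows held 46 of 2722 reads. Bmpr2 reached it at 77.5%, with a quiet run of 152 windows, starts 3751 to 7526, that held 58 of 2343 reads.

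Smad6 and Smad4 had their signal early in the order, with 50% reached at 22.3% and 28.0%, followed by Bmpr1a at 33.7% and Bmp4 at 43.3%. Tgfb2, Tgfbr2 and Bmp2 reached it at 50.4%, 54.6% and 58.1%. In Tgfbr2 the first 141 windows, starts 1 to 3513, held 17 of 4130 reads, and signal then began abruptly. Tgfb2 had a gap of 12 windows, starts 3717 to 3992, with 1 of 5460 reads. Of the 7 genes with a strand in the RefSeq promoter table, the 2 on the plus strand, Bmp10 and Bmpr2, reached 50% later in the order than the 5 on the minus strand, Bmp4, Bmpr1a, Tgfb2, Tgfbr2 and Smad6.

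**Figure D4:**
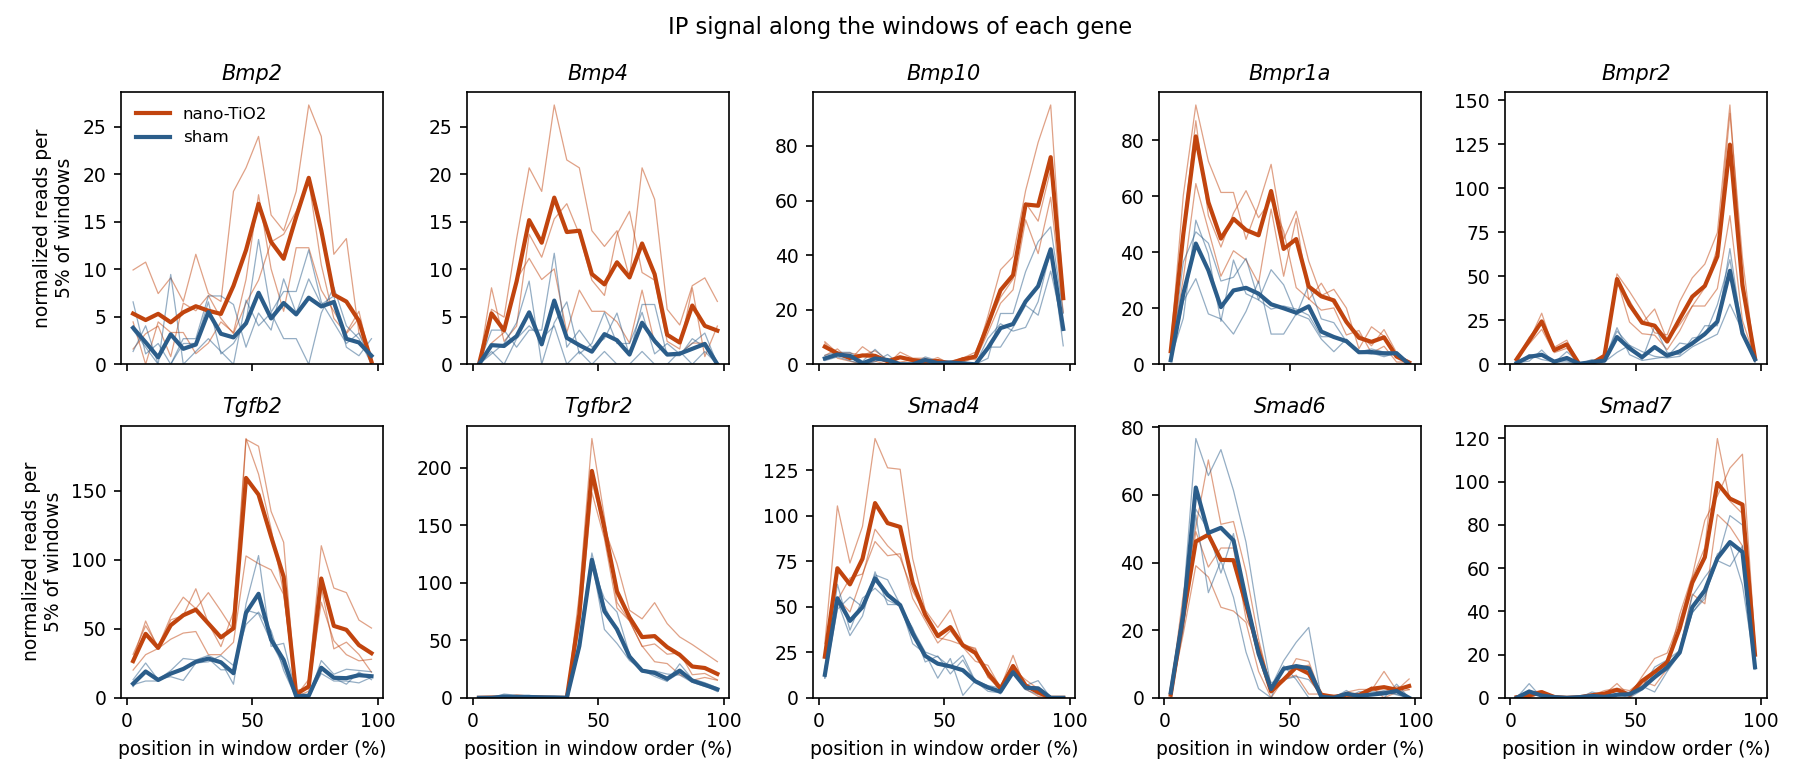
IP signal along each of the 10 genes, as normalized reads in each 5% of its windows in table order. Thin lines are libraries and thick lines group means (3 nano-TiO2, 3 sham); the highest point of the group mean falls in the same place in both groups in 6 of the 10 genes, and Smad6 is the one gene whose higher peak is in sham.

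The shape of these profiles was compared by the share of a gene's reads in the first 25% of its windows, in the last 25% and in its 10 highest windows. Of the 30 shares, 2 had groups that did not overlap, with an exact two-sided permutation p of 0.1, below which this design cannot go. Adjusted over the 30 shares it was 0.84, so no share passed. Shares were not taken for other genes, so no all-gene rate stands beside this count, and the shares below are descriptions. With one library left out the number was 3 to 6, at 4 without nano-TiO2 replicate 1 or sham replicate 3 and at 6 without sham replicate 1 or 2. Leaving out a library cannot make separated groups overlap, so this number could only stay or rise. Smad4 had 41.6% ± 2.28 of its reads in the first 25% of windows in nano-TiO2 hearts and 46.4% ± 1.21 in sham hearts (SD, n = 3 each). Smad6 had 4.86% ± 3.15 in the last 25% in nano-TiO2 hearts and 1.70% ± 0.614 in sham hearts. The other shares overlapped. Bmp10 held 77.0% ± 2.80 of its reads in the last 25% of windows in nano-TiO2 and 77.2% ± 2.72 in sham hearts, and Smad7 held 73.0% ± 2.41 and 72.9% ± 0.959. Bmpr2 held 50.3% ± 3.84 and 58.0% ± 6.03 there.

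Single windows had few reads, and 50 of the 2397 windows reached a mean of 10 and were tested in IP level, in 5 genes. They were 19 windows of Smad4, 12 of Tgfbr2, 10 of Tgfb2, 7 of Smad7 and 2 of Smad6. The log2 change was above 0 in 46 of them, and 3 windows rose, all in Tgfb2, while 0 fell (limma). Those 3 reached the mean of 10 over the 6 libraries only through nano-TiO2, with sham means of 4.29, 6.46 and 5.19. Because this filter can admit windows that are high in a single group, the calls, the count of 46 and the median of the 50 are descriptions. Over all 250317 windows tested, 3.88% rose and 7.32% fell. The median log2 change was 0.73 in the 50 windows and -0.13 over all windows tested. Most of the 50 lie in Smad4, Tgfbr2 and Tgfb2, which rose as genes, so their direction is not separate evidence. Window 2767, the highest of Tgfb2, had 14.5, 27.3 and 24.2 normalized reads in nano-TiO2 replicates 1, 2 and 3, against 6.30, 7.67 and 5.41 in sham replicates 1, 2 and 3. The groups were apart at this window, whose log2 change was 1.59 ± 0.40 (SE, limma adjusted p = 0.0188). The windows starting at 2717 and 2892 changed by 1.91 ± 0.49 and 1.46 ± 0.45 (SE, limma adjusted p = 0.0211 and 0.0468). Windows this close share fragments of 250 to 350 nucleotides, so the 3 are not independent. The number called was 0 without nano-TiO2 replicate 2, 0 without nano-TiO2 replicate 3, 1 without sham replicate 1, and 19 of 1046 where windows with a mean of at least 1 were tested. Over all 1024856 windows tested at that mean, 13955 rose and 13178 fell.

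The highest window of Smad4, starting at 738, had 22.3, 19.0 and 28.2 normalized reads in nano-TiO2 replicates 1, 2 and 3, against 10.8, 20.8 and 6.76 in sham replicates 1, 2 and 3. Sham replicate 2 lay inside the nano-TiO2 range, and the window did not pass (log2 change of 0.92 ± 0.38 SE, limma adjusted p = 0.132). The highest window of Tgfbr2, at 3663, had 11.2, 16.6 and 20.1 in nano-TiO2 hearts, against 14.4, 10.95 and 13.5 in sham hearts. Although the gene as a whole rose, the groups overlapped at this window, with a log2 change of 0.25 ± 0.36 (SE, limma adjusted p = 0.698).

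The highest windows of Smad7 (4151) and Smad6 (381) changed by 0.71 and -0.38 and did not pass. In the other 5 genes no window was tested in IP level. Their highest windows were Bmp10 4226, with means of 10.8 ± 2.33 in nano-TiO2 and 8.71 ± 3.07 in sham hearts, Bmpr1a 652 (11.0 ± 1.89 and 4.08 ± 1.39), Bmpr2 16076 (8.18 ± 3.78 and 2.98 ± 0.964), Bmp4 1474 (4.84 ± 3.10 and 1.56 ± 1.84) and Bmp2 2476 (4.00 ± 1.71 and 2.17 ± 0.927; SD, n = 3 each). In Bmpr1a the nano-TiO2 libraries of this window had 10, 11 and 16 reads, against 3, 5 and 3 in sham.

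Whether a window moved against its own gene was tested within genes. Of the 50 windows, 0 passed (limma's diffSplice, 2 at an unadjusted p under 0.05), as did 0 of 107 when runs of 10 neighbouring windows were summed. Over all 249423 windows tested within genes, 0.0373% were higher and 0.00922% lower than their gene, and 8135 had an unadjusted p under 0.05. Of all 114048 runs, 308 were higher and 123 lower. On the adjusted scale 49 windows of the 10 genes were tested and 0 passed, with 3 at an unadjusted p under 0.05. Over all 253327 windows tested, 0.00118% were higher and 0.00197% lower, and 24602 had an unadjusted p under 0.05. Window 4226 of Bmp10 was among the 49 tested, with a log2 change in adjusted level of -0.68 ± 0.41 (SE, limma adjusted p = 0.598).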

How the data were processed

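Anti-m6A IP libraries from 3 nano-TiO2 and 3 sham pools of fetal hearts were compared, as grouped and numbered in the sample titles. The submitters' processing notes name the build GRCm39 and the tools DESeq2 1.34.0, Salmon 1.5.2 and HISAT2 2.2.1 without their roles; the sources used here do not give a strand setting. The values of the deposited normalized table are signal per window: 100% of its values were whole multiples of 1 step per library (tolerance 0.0001), so they are reads over 1 size factor, and whole reads were recovered. The deposited adjusted values are scores, equal to the normalized values over 1 factor per gene and library after rounding. Another table was identical to the normalized one and not used here.

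Gene sums and windows with a mean of at least 10 were log2-transformed after adding 1 and tested two-sided with limma 3.58.1 with a mean trend (R 4.3.3); p-values were adjusted by Benjamini-Hochberg over all features, at 0.05. Fold changes on that scale understate changes of low genes. Shares were compared by exact permutation (SciPy 1.17.1). Because the values are not raw counts, edgeR 4.0.16 and DESeq2 1.42.0 on the recovered read counts were alternatives; edgeR called 4301 genes higher and 2631 lower in IP level, and limma 4450 and 2226. Tests were tried on simulated data with 66 or 67 changed features at each fold. Of 2-fold changes they recovered 29.9% in IP level per gene, 38.8% in adjusted level and 53.7% in the factor. For windows this was 4.48% in IP level, 2.99% within genes and 0% in adjusted level. Of 4-fold changes they recovered 80.3%, 78.8% and 84.8% for genes and 80.3%, 77.3% and 18.2% for windows, in the same order. A gene or window that did not pass may thus still have changed. Other tools were Python 3.11.15, NumPy 2.4.6, pandas 2.3.3 and matplotlib 3.10.9. The 10 genes, the motifs and the lists were chosen with earlier results of these data known; the rule named all 10 genes, each gene's highest window and any window past a test. No Ensembl ID is paired with a symbol in the RefSeq table at hand, so heart and other cell type markers and further pathway genes are not analysed here. Deviations of same-numbered libraries were at most weakly alike, which does not exclude a pairing by number.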

Additional observations from a re-analysis of the deposited data

How the results depend on the processing

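Libraries held 20205024 to 31523675 reads, but a single gene here had as few as 16, and 3 libraries a group allow an exact p no lower than 0.1. Input libraries are not analysed here, so an IP change cannot be divided into RNA amount and methylation.

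The count of 8 genes in IP level was 3 with the length trend removed and 2 of the 5 tested with the median of tested windows, and 7 to 9 without one library; it was 7 to 9 in the other settings. In adjusted level the count was 3 with library weights and 0 to 1 without one library. In the factor it was 0 to 6 without one library. For single windows in IP level it was 19 at a mean of at least 1 and 0 to 3 without one library, and with a mean of at least 50 no window of these genes was tested. Of the shares, 3 to 6 had groups apart without one library, a number that leaving out a library can only keep or raise. It has no all-gene rate beside it. The cause of the other differences was not tested. No pairing by replicate number was seen: deviations of same-numbered libraries correlated at -0.37, 0.18 and 0.02. Those of differently numbered libraries ran from -0.56 to 0.52. With 3 libraries a group these values cannot exclude a pairing. The replicate block gave 3 genes in the factor and changed no other count (8 genes and 3 windows in IP level, 0 in adjusted level).

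Signs turned for small changes, none of which passed the test. The Smad6 IP change was 0.37 with equal library totals, 0.14 with equal totals over all but the 4 most abundant genes and -0.36 to 0.14 without one library, and its factor change -0.50 to 0.0050 without one library. In adjusted level, Bmp2 was at -0.15 with TMM scaling, -0.20 with quantile normalization and -0.19 to 0.22 without one library. Bmp10 was at -0.15 and -0.19 in the same settings, -0.0064 with edgeR and the factor as an offset, -0.088 with weights and -0.12 to 0.091 without one library. Smad6 was at -0.034 with quantile normalization. Smad4 ran from -0.16 to 0.072 and Smad7 from -0.045 to 0.029 without one library. Across single genes, 176 of the IP values under an alternative kept their direction and side of the threshold, 11 lost the call, 4 gained it and 4 turned. An adjusted level divided without rounding, chosen after seeing the data, called 0 of the 10 genes. Over all genes, IP calls were 4450 higher and 2226 lower, and 733 and 2085 with the median of tested windows. Adjusted-level calls were 0, but 4347 higher and 664 lower with weights and 1628 and 267 without sham replicate 2. Factor calls were 2318 higher and 2661 lower, and 1362 and 431 with the replicate block. IP windows numbered 9718 higher and 18334 lower, 8484 and 2520 with quantile normalization and 3608 and 9408 without nano-TiO2 replicate 1.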
